A study of Macaca mulatta with 4 samples.

Results

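The genes studied here encode the proteasome, the barrel-shaped protease that degrades ubiquitin-tagged proteins, together with its activators and assembly chaperones. Members were all genes whose symbol begins PSMA, PSMB, PSMC, PSMD, PSME, PSMF or PSMG followed by a digit, and 50 of the 35395 gene IDs in the table matched. Of these, 48 had 10 or more reads in at least 2 libraries and were kept. The other 2 were the thymus-specific subunit PSMB11, with 0 reads in every library (3 reads, the upper limit that a count of 0 allows, correspond to 0.184 to 0.240 CPM before TMM scaling and cover counting error only), and the testis-specific subunit PSMA8, with 5 and 10 reads in the control female and male and 1 read in each sevoflurane library. Among the kept genes, PSMC3IP, a meiotic recombination factor, and PSME3IP1, a partner of the activator PSME3, share the prefix but are not proteasome subunits. The remaining 46 genes were placed in 8 groups by their role.

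The tissue was amygdala of wild-type rhesus macaques (Macaca mulatta), and 4 RNA libraries were made from it. The control group held 1 female and 1 male, and the sevoflurane group 1 female and 1 male that inhaled about 2.5 to 3% of this volatile anaesthetic for 4 hours on each of 3 occasions, near postnatal days 7, 21 and 35, with tissue collected straight after the last. How the controls were handled during those hours is not given in the labels, nor is the age at which their tissue was taken, so the anaesthetic and any difference in handling cannot be told apart. RNA quality, dissection and any preparation batch are not among the labels used here. Differences in these cannot be told apart from the anaesthetic either. Each value below is 1 library, and each group has n = 2, of unlike sex.

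A proteasome is built from a core particle and a regulatory particle. The core is a stack of rings of alpha subunits (PSMA), which gate the entry, and beta subunits (PSMB), of which PSMB5, PSMB6 and PSMB7 carry the peptide-cutting sites. The regulatory particle has a base, with a ring of ATPases (PSMC) that unfolds substrates and large scaffold and ubiquitin-binding subunits, and a lid, whose subunit PSMD14 removes the ubiquitin chain. In neurons the proteasome turns over synaptic and regulatory proteins, and interferon replaces the catalytic beta subunits with inducible ones, PSMB8, PSMB9 and PSMB10, to form the immunoproteasome.

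The libraries held 12477047 to 16293371 reads on genes. Levels are CPM, the reads of a gene relative to its library's reads after TMM scaling, and a gene was called when its Benjamini-Hochberg adjusted p, from edgeR's quasi-likelihood test over 15417 genes, was under 0.05. Over the whole table the median log2 fold change was 0.0040 with TMM and 0.24 with plain library totals, and all changes are given relative to TMM. Neuronal markers were present in every library, with 7 of 7 listed genes tested and a summed level of 5717 to 6518 CPM in controls and 6646 to 7076 CPM after sevoflurane. Single neuronal markers went opposite ways within that sum. SYT1, of synaptic vesicles, was at 36.2 and 7.37 CPM in the control female and male and 841.2 and 815.4 CPM after sevoflurane (edgeR adjusted p = 0.00422). RBFOX3 was at 298.4 and 240.3 CPM in controls and 162.1 and 100.6 CPM after sevoflurane (adjusted p = 0.0415), a call lost without the control female or the sevoflurane male library (adjusted p = 0.141 and 0.147). The 5 markers listed for amygdala nuclei, which are not exclusive to them, summed to 553.8 and 801.9 CPM in controls and 476.9 and 1309 CPM after sevoflurane, mostly from LMO3. Of these 5, 2 were called higher: FOXP2, with 1 and 0 reads in the control female and male and 235 and 35 reads after sevoflurane, and TSHZ1, at 3.26 and 0.53 CPM in controls and 19.7 and 11.1 CPM after sevoflurane. The call of TSHZ1 was lost without either sevoflurane library (edgeR adjusted p = 0.126 and 0.0662). The control male library stood apart in choroid plexus markers, whose 5 matched genes summed to 17993 CPM there and to 3.43 to 28.3 CPM in the other libraries.

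Proteasome genes were mostly lower after sevoflurane, and the median change differed between the parts of the complex. The ranges of the parts overlapped, as for the beta ring (log2 −2.58 to −1.02) and the lid (−1.22 to 0.69). No test compared these medians. Of the 48 kept genes, 27 fell (56.2%) and 2 rose (4.17%), beside 19.4% of all tested genes called lower and 21.3% called higher, or 40.7% called in either direction. The 19 genes not called included both genes that only share the prefix. Summed over the 46 subunits and chaperones, the control female and male libraries reached 6748 and 7346 CPM, and the sevoflurane female and male libraries 3325 and 3796 CPM. Both sevoflurane libraries were thus below both controls, by 1.98-fold on the means. The median log2 fold change of the 48 genes was −0.92, against 0.0040 over the whole table. Astrocyte markers were mixed, with 2 of 5 called lower, 0 called higher and a summed level of 3981 and 3520 CPM in controls and 2515 and 3191 CPM after sevoflurane. GFAP was at 2317 and 2337 CPM in controls and 253.8 and 551.8 CPM after sevoflurane (edgeR adjusted p = 0.00623). ALDH1L1 was called lower too (adjusted p = 0.0413), but not without the control female, the sevoflurane female or the sevoflurane male (adjusted p = 0.202, 0.148 and 0.0548), while SLC1A3 and GJA1 had both sevoflurane levels above both controls and were not called. Oligodendrocyte markers, of which 0 of 4 tested were called, summed to 1362 and 5912 CPM in controls and 2774 and 3605 CPM after sevoflurane. The part of these cells in the proteasome values was not tested. In bulk tissue, fewer cells of a type and less RNA per cell cannot be told apart.

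The calls thinned when single libraries were left out. Without the control female library 18 genes fell and 2 rose (17.2% of all genes lower, 18.8% higher, 35.9% called). Without the control male 17 fell and 1 rose (13.4%, 15.3% and 28.7%). Without the sevoflurane female 18 fell and 2 rose (14.3%, 15.3% and 29.6%), and without the sevoflurane male 18 fell and 1 rose (9.32%, 12.2% and 21.5%). In all, 16 genes were called in each of the 4 fits: PSMA5, PSMA7, PSMB1, PSMB2, PSMB3, PSMB4, PSMB6, PSMB7, PSMB10, PSMC3, PSMC5, PSMD4, PSMD8, PSME4, PSMG3 and PSMG4. Scaled by plain library totals, 20 of the 48 fell and 3 rose, beside 14.7% of all genes called lower and 25.3% higher (40.1% called), and 63.3% of all called genes were higher against 52.3% with TMM. DESeq2 called the same 27 lower and 2 higher, beside 22.2% and 23.3% of all genes (45.6% called). Of the 48 genes, 35 had both sevoflurane levels below both controls and 4 had both above, beside 37.3% and 37.7% of all tested genes.

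**Figure D1:**
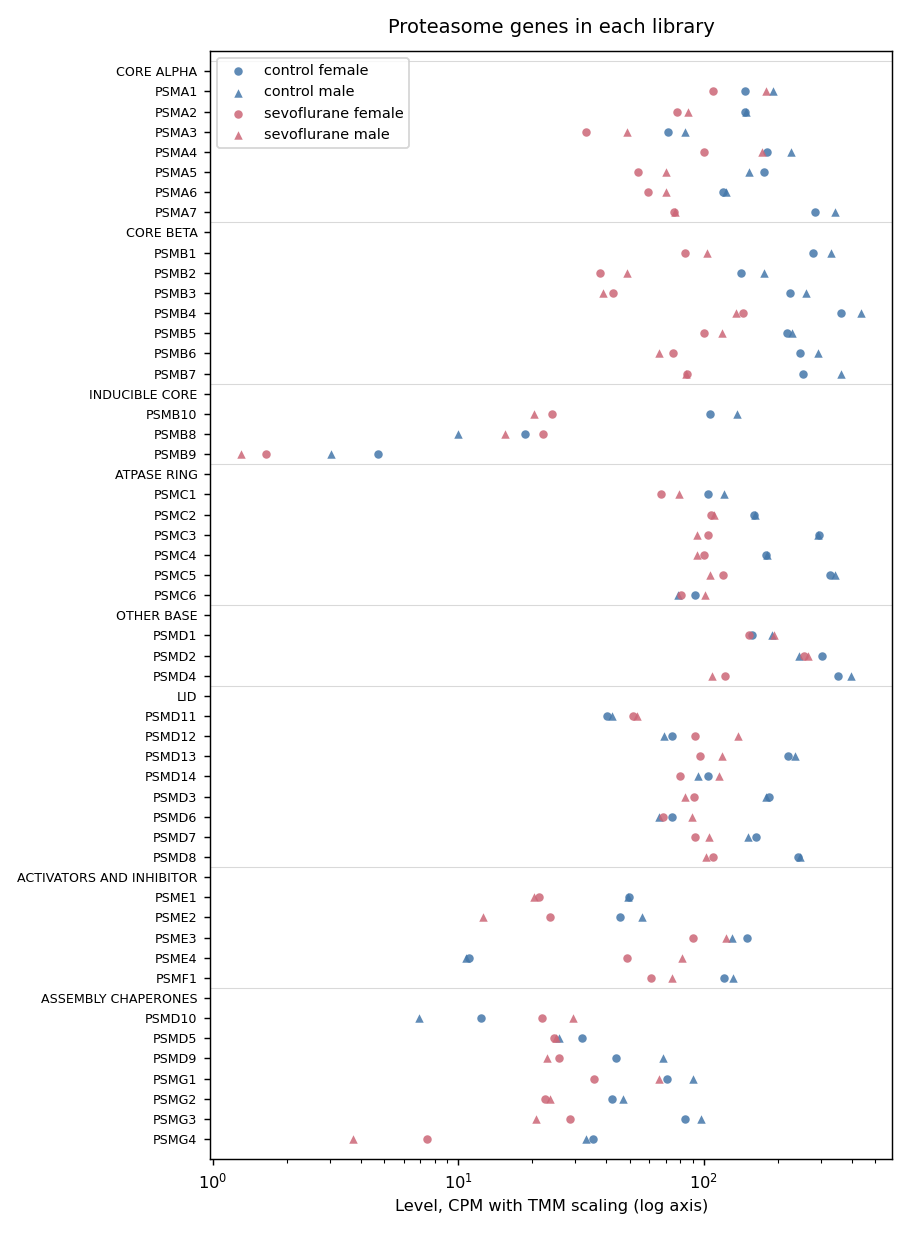
Level of the 46 proteasome subunits and chaperones in each library, in CPM with TMM scaling on a log axis, with genes in rows by group. Blue marks are controls and red marks sevoflurane libraries (circles female, triangles male); the red marks of all beta subunits lie left of the blue ones, while those of PSME4 and PSMD10 lie right.

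The alpha ring fell in part. Of its 7 subunits, 5 fell (71.4%, beside 19.4% of all tested genes), 0 rose and 2 were not called. The median log2 fold change was −0.91. PSMA7 (ENSMMUG00000018354) changed most: it stood at 283.1 and 341.5 CPM in the control female and male, against 75.4 and 76.2 CPM in the sevoflurane female and male. The 2 conditions were far apart compared with the spread within each, and the log2 fold change was −2.04 ± 0.26 (SE, edgeR adjusted p = 0.00297, lower in both sexes). PSMA1 (ENSMMUG00000016446) changed least, at 147.5 and 191.9 CPM in the control female and male and 108.9 and 179.0 CPM after sevoflurane. Its conditions overlapped, since the sevoflurane male was above the control female, and it was not called (−0.24 ± 0.33).

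PSMA5 fell with a log2 fold change of −1.41 ± 0.27, the second largest fall of the ring. PSMA2, PSMA3 and PSMA6 fell with log2 fold changes of −0.85, −0.92 and −0.91. Their calls were fragile. PSMA2 and PSMA6 were not called once any 1 of the 4 libraries was left out (edgeR adjusted p = 0.0773 to 0.135 and 0.0609 to 0.118), with log2 fold changes of −0.77 to −0.92 and −0.78 to −1.04. PSMA3 kept its call only without the sevoflurane male library (adjusted p = 0.0486, log2 −1.22) and was at −0.66 to −1.01 in the other 3 fits. With library totals all 3 lost their calls. PSMA4 was not called, at −0.58 ± 0.33, with a difference in log2 CPM of −0.85 in females and −0.40 in males.

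The beta ring fell as a whole. All 7 constitutive beta subunits fell, beside 19.4% of all tested genes called lower. Their median was −1.86, with a range from −2.58 (PSMB3) to −1.02 (PSMB5). In each of the 7 both sevoflurane libraries were below both controls, beside 37.3% of all tested genes. PSMB3 (ENSMMUG00000012363), a structural subunit, had 225.4 and 260.0 CPM in the control female and male and 42.7 and 38.7 CPM in the sevoflurane female and male. Its level after sevoflurane was 5.97-fold lower in the fit (log2 −2.58 ± 0.26, edgeR adjusted p = 0.00197). The summed level of the ring was 1726 and 2086 CPM in the control female and male and 568.7 and 594.4 CPM after sevoflurane. For comparison, the alpha ring summed to 1126 and 1269 CPM in the controls and to 508.6 and 703.0 CPM after sevoflurane.

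The 3 catalytic beta subunits did not change by the same amount. PSMB5 (ENSMMUG00000006007), the chymotrypsin-like subunit, was at 217.5 and 228.0 CPM in the control female and male and at 100.01 and 119.2 CPM after sevoflurane. Its log2 fold change of −1.02 ± 0.25 (edgeR adjusted p = 0.0197) was the smallest of the ring, and the call was lost without the control female, the control male or the sevoflurane female library (adjusted p = 0.0662, 0.0802 and 0.0644, log2 −1.03, −1.02 and −0.89). PSMB6 (ENSMMUG00000049649), the caspase-like subunit, was at 246.5 and 290.7 CPM in controls and 74.6 and 65.5 CPM after sevoflurane (−1.94 ± 0.26, adjusted p = 0.00341). PSMB7 (ENSMMUG00000060033), the trypsin-like subunit, was at 254.1 and 362.6 CPM in controls and 85.6 and 84.3 CPM after sevoflurane (−1.86 ± 0.28, adjusted p = 0.00470). For PSMB6 and PSMB7 the sevoflurane libraries lay close together and well below either control. The other beta subunits, PSMB1, PSMB2 and PSMB4, fell with log2 fold changes of −1.71, −1.88 and −1.52.

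**Figure D2:**
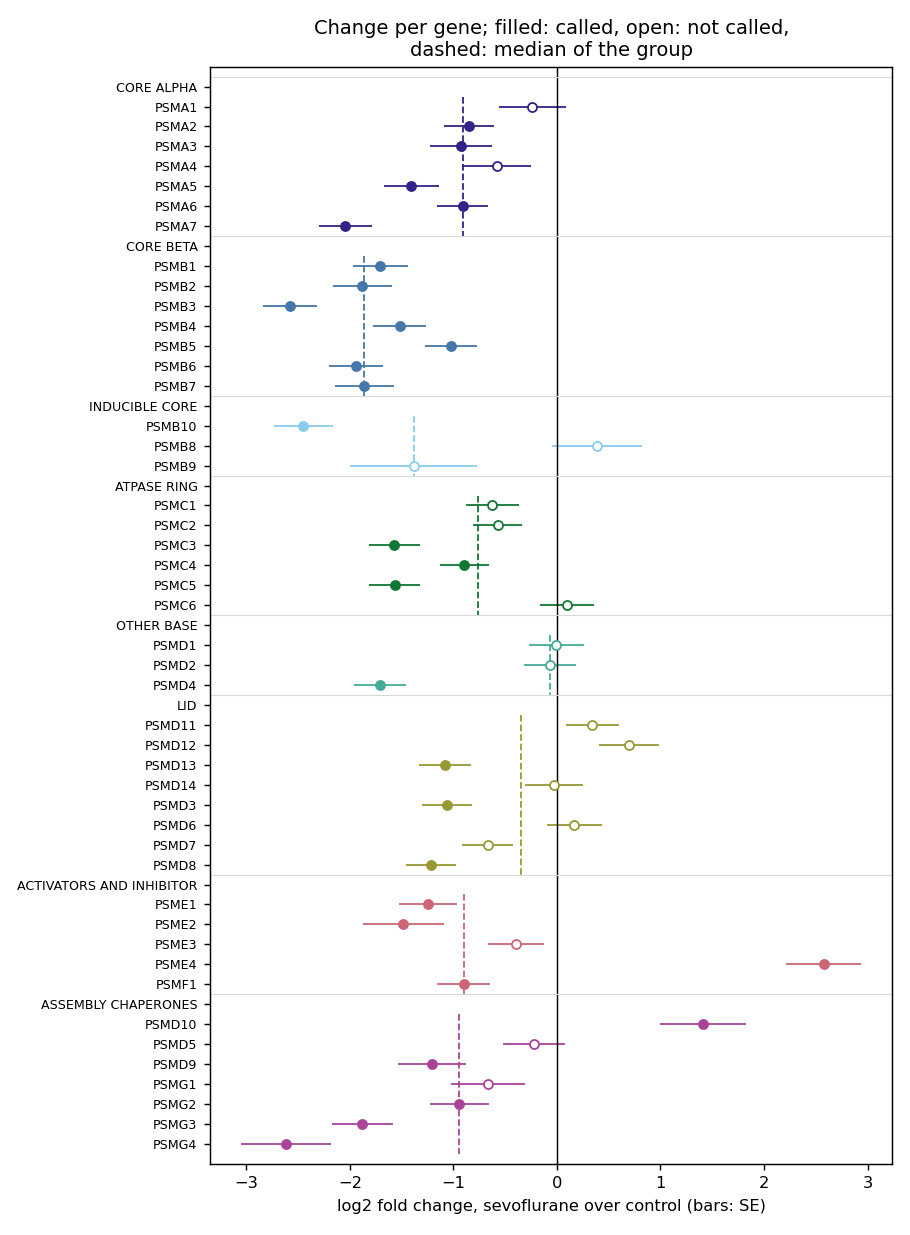
Log2 fold change of each gene, sevoflurane over control, with its standard error, by group; filled points were called, open points were not, and dashed lines are group medians. The beta ring (median −1.86) lies left of the alpha ring (−0.91), the ATPase ring (−0.76) and the lid (−0.35), and PSME4 (2.58) and PSMD10 (1.41) are the filled points right of 0.

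The inducible catalytic subunits differed from each other. PSMB10 (ENSMMUG00000064535), which replaces PSMB7, was at 106.3 and 136.4 CPM in the control female and male and at 24.1 and 20.3 CPM after sevoflurane. It fell (log2 −2.45 ± 0.28, edgeR adjusted p = 0.00251), and the conditions did not overlap. PSMB8 (ENSMMUG00000011301), which replaces PSMB5, was at 18.7 and 9.95 CPM in controls and 22.2 and 15.5 CPM after sevoflurane, with overlapping conditions and no call (0.39 ± 0.43). PSMB9 (ENSMMUG00000011304), which replaces PSMB6, was scarce, at 72 and 34 reads (4.70 and 3.02 CPM) in controls and 26 and 19 reads (1.65 and 1.30 CPM) after sevoflurane. Its levels were below both controls in both sevoflurane libraries, yet it was not called (−1.38 ± 0.62, adjusted p = 0.115).

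The share that each inducible subunit took of the CPM of its pair was higher after sevoflurane for PSMB8 and PSMB9 and lower for PSMB10. Transcript lengths were not used, so only the change of such a share between libraries can be read, not its size. PSMB8 made up 7.93% and 4.18% of PSMB8 and PSMB5 together in the control female and male, and 18.1% and 11.5% after sevoflurane. The share of PSMB10 with PSMB7 was 29.5% and 27.3% in the controls and 21.97% and 19.4% after sevoflurane. PSMB9 with PSMB6 was at 1.87% and 1.03% in the controls and 2.16% and 1.95% after sevoflurane. In each of the 3 pairs the conditions did not overlap, which gives an exact permutation p of 0.333 (two-sided), the smallest that 2 against 2 libraries allow. Lack of overlap was common among single genes too. Of all tested genes, 37.3% had both sevoflurane levels below both controls and 37.7% both above. For PSMB9 the gap was narrow, between the control female (1.87%, 72 reads of PSMB9) and the sevoflurane male (1.95%, 19 reads). PSMB9 itself was lower after sevoflurane (log2 −1.38, not called), by less than PSMB6 (−1.94). Over all 3 pairs the inducible share was 15.3% and 14.5% in the controls and 15.6% and 12.1% after sevoflurane. These values overlapped (exact permutation p = 1), and the difference of −1.06 percentage points became 0.65 without the sevoflurane male and −2.78 without the sevoflurane female library.

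Markers of cell types that carry the immunoproteasome also differed between the libraries. Of 7 microglial markers, 5 were called lower (71.4%) and 0 higher, beside 19.4% and 21.3% of all tested genes. Their summed level was 393.3 to 433.5 CPM in controls and 162.4 to 222.3 CPM after sevoflurane. P2RY12 was not called and its conditions overlapped, at 63.9 and 53.1 CPM in controls and 40.1 and 97.2 CPM after sevoflurane. CSF1R was called lower, with a log2 fold change of −0.93 that ranged from −0.72 to −1.16 with 1 library left out. Of 5 endothelial markers 1 was called lower and 2 higher. Their sum was 159.8 and 207.3 CPM in controls and 122.7 and 117.6 CPM after sevoflurane, and in controls it was mostly CLDN5. CLDN5 was called lower, at 110.9 and 149.0 CPM in the control female and male and 21.5 and 20.4 CPM after sevoflurane. FLT1, at 2.35 and 0.36 CPM in controls and 39.9 and 48.4 CPM after sevoflurane, was called higher. CDH5 was called higher too, from 26 and 4 reads in controls and 170 and 113 reads after sevoflurane. Its log2 fold change of 3.13 ± 0.79 ranged from 2.41 to 4.69 with 1 library left out. PECAM1 and VWF were not called. T cell markers summed to 4.63 to 11.1 CPM. CD3G was at 0 in all 4 libraries, and CD3D and CD2 had at most 2 reads in any. CD3E was at 2.61 and 4.80 CPM in controls and 3.48 and 6.94 CPM after sevoflurane. CD8A was at 1.89 and 1.78 CPM in controls and 2.66 and 4.05 CPM after sevoflurane. Neither CD3E nor CD8A was called. The part of these cells in the values of PSMB8, PSMB9 and PSMB10 was not tested.

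**Figure D3:**
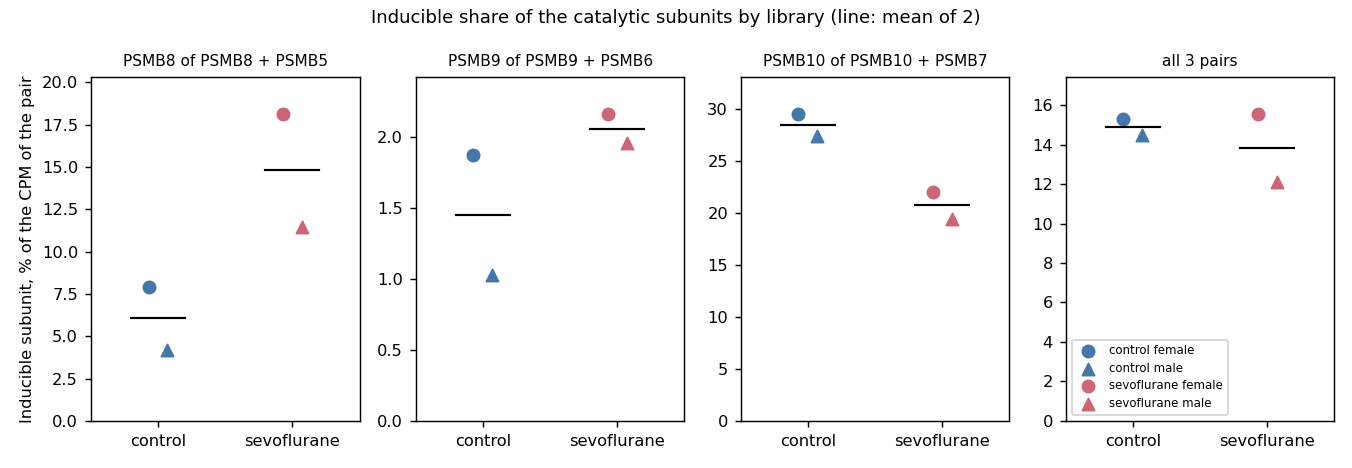
Share of the inducible subunit in the summed CPM of each catalytic pair, by library (circles female, triangles male, line the mean of 2); the last panel sums the 3 pairs, and each axis starts at 0 with its own scale. The PSMB8 share is higher in both sevoflurane libraries (11.5 and 18.1%) than in the controls (4.18 and 7.93%), and the PSMB10 share is lower.

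The ATPase ring was split. Of its 6 members, which form a single hexamer, 3 fell (50.0%) and 0 rose, beside 19.4% and 21.3% of all tested genes. The median was −0.76. PSMC3 (ENSMMUG00000015611) was at 293.8 and 292.4 CPM in the control female and male and at 103.6 and 94.0 CPM after sevoflurane (log2 fold change −1.57 ± 0.24, edgeR adjusted p = 0.00491). PSMC6 (ENSMMUG00000049010) was at 92.0 and 78.5 CPM in controls and 80.9 and 101.6 CPM after sevoflurane. Its conditions overlapped, and its log2 fold change was 0.10 ± 0.26 (adjusted p = 0.789). PSMC5 fell as much as PSMC3 (log2 −1.57 ± 0.25). PSMC4 fell (log2 −0.89 ± 0.24), a call that library totals did not give and that was lost without any 1 of the 4 libraries (adjusted p = 0.0589 to 0.113, log2 −0.84 to −0.93). PSMC1 and PSMC2 were not called (−0.62 ± 0.25 and −0.57 ± 0.24), although both sevoflurane libraries were below both controls for each.

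During assembly of the base, the ATPases first join in pairs, PSMC2 with PSMC1, PSMC4 with PSMC5 and PSMC6 with PSMC3. The difference in log2 CPM within a pair does not depend on library scaling, and only its change between libraries is read here, since lengths were not used. For PSMC2 minus PSMC1 it was 0.63 and 0.42 in the control female and male and 0.67 and 0.48 after sevoflurane, so the conditions overlapped. For PSMC4 minus PSMC5 it was −0.87 and −0.92 in the controls and −0.26 and −0.18 after sevoflurane, a change of 0.67. For PSMC6 minus PSMC3 it was −1.67 and −1.89 in the controls and −0.36 and 0.11 after sevoflurane, a change of 1.66. In these last pairs each sevoflurane library stood above both controls. Of 11 such differences between partner genes computed here, 8 reached the smallest exact permutation p that 2 against 2 libraries allow. That exact permutation p was 0.333, or 0.458 after Benjamini-Hochberg adjustment over the 11, and any pair without overlap reaches it. Single genes did so often too: 37.3% of all tested genes had both sevoflurane levels below both controls and 37.7% both above. The count of 8 is therefore not read as a result about the partners.

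The non-ATPase subunits of the base differed as strongly among themselves. PSMD4 (ENSMMUG00000049004), a ubiquitin receptor, was at 353.0 and 397.4 CPM in the control female and male and at 121.5 and 108.2 CPM after sevoflurane. It fell (log2 −1.71 ± 0.25, edgeR adjusted p = 0.00430), with both sevoflurane libraries far below the controls. PSMD1 (ENSMMUG00000011769), a large scaffold, was at 157.3 and 189.6 CPM in controls and 153.4 and 192.4 CPM after sevoflurane. Each sex thus had nearly the same level in both conditions (−0.00 ± 0.26 in the fit). PSMD2, the other large scaffold, was at 302.1 and 243.8 CPM in controls and 254.9 and 265.8 CPM after sevoflurane (−0.07 ± 0.25). Neither scaffold was called, and their direction turned with library totals (0.23 for PSMD1 and 0.16 for PSMD2).

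**Figure D4:**
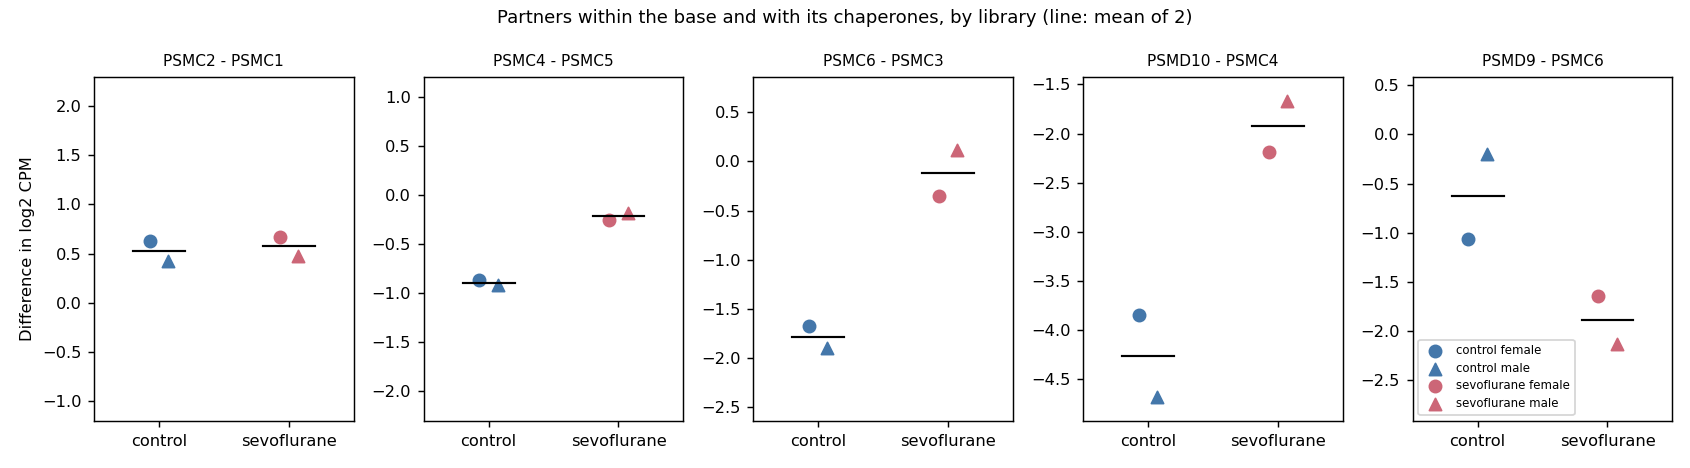
Difference in log2 CPM between partner genes of the base and between base chaperones and ATPases, by library (circles female, triangles male, line the mean of 2); the panels span the same height but have their own axis limits. PSMC2 minus PSMC1 overlaps between the conditions, while PSMC6 minus PSMC3 and PSMD10 minus PSMC4 are higher in both sevoflurane libraries and PSMD9 minus PSMC6 is lower.

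The lid was the least lowered of the groups with more than 3 genes, by median. Of its 8 subunits, 3 fell (37.5%), 0 rose and 5 were not called. Of all tested genes 19.4% were called lower and 40.7% in either direction. The lid's median of −0.35 ranged from −0.17 without the sevoflurane female to −0.54 without the sevoflurane male library, and was −0.12 with library totals. PSMD8 (ENSMMUG00000038221), which completes the lid, was at 242.1 and 246.9 CPM in the control female and male and at 108.8 and 101.8 CPM after sevoflurane (−1.22 ± 0.24, edgeR adjusted p = 0.0101). PSMD12 (ENSMMUG00000002132), a scaffold of the lid, was at 74.0 and 68.8 CPM in controls and 92.4 and 138.5 CPM after sevoflurane. Both sevoflurane libraries were above both controls, but the gene was not called (0.69 ± 0.29, adjusted p = 0.0997), except with library totals or without the sevoflurane female library (0.96, adjusted p = 0.0499). PSMD14 (ENSMMUG00000011906), the deubiquitinase, was at 103.9 and 95.1 CPM in controls and 79.7 and 115.5 CPM after sevoflurane, with the sevoflurane libraries on either side of the controls (−0.03 ± 0.28).

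PSMD3 and PSMD13, both of the lid's scaffold, fell with log2 fold changes of −1.06 and −1.08. The call of PSMD3 was lost without the control female, the control male or the sevoflurane male library (edgeR adjusted p = 0.0684, 0.0558 and 0.0635, log2 −1.02, −1.11 and −0.99). That of PSMD13 was lost without the control female, the control male or the sevoflurane female library (adjusted p = 0.0508, 0.0709 and 0.0601, log2 −1.11, −1.06 and −0.92). PSMD14 sits in the lid as a dimer with PSMD7, which was at 163.1 and 151.5 CPM in controls and 92.4 and 105.4 CPM after sevoflurane (−0.67 ± 0.24, not called). The difference PSMD14 minus PSMD7 was −0.65 and −0.67 in controls and −0.21 and 0.13 after sevoflurane. PSMD6 and PSMD11, both of the lid's scaffold, were at 0.17 ± 0.27 and 0.34 ± 0.26.

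Ratios between the parts of the complex differed between the conditions in each library. The mean log2 CPM of the 14 constitutive core subunits minus that of the 6 ATPases was 0.13 and 0.32 in the control female and male, and −0.41 and −0.21 in the sevoflurane female and male. The sevoflurane minus control difference was −0.54, larger than the spread within either condition (SD 0.14 in each). With summed CPM in place of mean log2 CPM it was −0.38. The median log2 fold change was −0.91 for the alpha ring and −1.86 for the beta ring, beside −0.76 for the ATPases. The pooled core thus joins 2 unlike rings, of which the alpha ring had a median near that of the ATPases. Against the lid, the core stood at 0.68 and 0.93 in the controls and at −0.23 and −0.22 after sevoflurane, a difference of −1.03. For both ratios the conditions did not overlap, and the exact permutation p was 0.333 (two-sided), the smallest possible here. Among single genes such lack of overlap was common, with 37.3% of all tested genes wholly lower after sevoflurane and 37.7% wholly higher.

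Activators that cap the core in place of the regulatory particle went in opposite directions. PSME1 and PSME2 form the interferon-inducible activator PA28 together, and both fell. PSME1 (ENSMMUG00000012462) was at 49.7 and 49.2 CPM in the control female and male and at 21.4 and 20.3 CPM after sevoflurane (−1.24 ± 0.28, edgeR adjusted p = 0.0150). PSME2 (ENSMMUG00000012473) was at 45.5 and 56.2 CPM in controls and 23.7 and 12.6 CPM after sevoflurane (−1.48 ± 0.39, adjusted p = 0.0253). Both calls were lost without the sevoflurane male library (adjusted p = 0.0560 and 0.0771, log2 −1.204 and −1.09). In the RefSeq gene order of the macaque (assembly T2T-MMU8v2.0), 1 protein-coding gene separates PSME1 from PSME2.

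PSME4 (ENSMMUG00000008104), the activator PA200, was the member that rose most. It stood at 11.02 and 10.7 CPM in the control female and male, against 48.5 and 81.7 CPM in the sevoflurane female and male (169 and 121 reads against 767 and 1189). Every sevoflurane value was thus several times every control value (log2 2.58 ± 0.36, edgeR adjusted p = 0.00382). The difference PSME4 minus PSME1 was −2.16 and −2.18 in the controls and 1.18 and 2.00 after sevoflurane. PSME3, the nuclear activator, was at 149.8 and 130.3 CPM in controls and 90.5 and 122.9 CPM after sevoflurane and was not called (−0.39 ± 0.27). PSMF1, which encodes the regulator PI31, fell (log2 −0.90 ± 0.25), a call lost without any 1 of the 4 libraries and with library totals (edgeR adjusted p on leaving 1 out = 0.0605 to 0.141, log2 −0.75 to −1.05). In all, 3 of the 5 genes of this group fell and 1 rose.

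The chaperones that build the alpha ring work as a pair of dimers, PSMG1 with PSMG2 and PSMG3 with PSMG4. Of these 4 genes, 3 fell (75.0%) and 0 rose, beside 19.4% and 21.3% of all tested genes. PSMG4 (ENSMMUG00000011031) was at 35.5 and 33.1 CPM in the control female and male and at 7.47 and 3.71 CPM after sevoflurane (118 and 54 reads). It fell (log2 −2.61 ± 0.43, edgeR adjusted p = 0.00601) by about as much as PSMB3, and their order turned when a library was left out (PSMG4 at −2.55 and PSMB3 at −2.65 without the control female, and −2.19 and −2.50 without the sevoflurane male). Its partner PSMG3 (ENSMMUG00000013083) was at 83.5 and 97.4 CPM in controls and 28.5 and 20.7 CPM after sevoflurane (−1.88 ± 0.29, adjusted p = 0.00503). In both genes the sevoflurane male was lowest.

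The other dimer changed less. PSMG2 (ENSMMUG00000063218) was at 42.1 and 46.7 CPM in controls and 22.6 and 23.6 CPM after sevoflurane (−0.94 ± 0.28, edgeR adjusted p = 0.0379), and this call did not hold with library totals or without any 1 of the 4 libraries (adjusted p on leaving 1 out = 0.0911 to 0.145, log2 −0.89 to −0.99). PSMG1 (ENSMMUG00000008498) was at 70.5 and 90.0 CPM in controls and 35.7 and 65.5 CPM after sevoflurane. Both sevoflurane values were below the controls, but the sevoflurane male was close to the control female, and the gene was not called (−0.67 ± 0.36). POMP, the maturation factor of the beta ring, was at 134.6 and 162.1 CPM in controls and 101.2 and 133.1 CPM after sevoflurane. It was not called (−0.34 ± 0.27), although both sevoflurane levels were below both controls.

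The chaperones of the base went separate ways. PSMD10 (ENSMMUG00000016981), also named gankyrin, binds the ATPase PSMC4. It was at 12.3 and 6.93 CPM in the control female and male and at 21.9 and 29.4 CPM after sevoflurane, so both sevoflurane libraries were above both controls. It rose by 1.41 ± 0.41 (log2, edgeR adjusted p = 0.0364), but the call was lost without the control male or either sevoflurane library (adjusted p = 0.148, 0.0627 and 0.162, log2 1.03, 1.61 and 1.19). Relative to PSMC4, PSMD10 stood at −3.84 and −4.68 (log2 CPM) in the controls and at −2.19 and −1.67 after sevoflurane.

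PSMD9, which attaches to the PSMC6 and PSMC3 pair, was at 43.9 and 68.5 CPM in controls and 25.8 and 23.0 CPM after sevoflurane. It fell (log2 −1.203 ± 0.33, edgeR adjusted p = 0.0285), a call lost with library totals and without the control male or either sevoflurane library (adjusted p = 0.152, 0.0693 and 0.105, log2 −0.88, −1.28 and −1.12). PSMD9 minus PSMC6 was −1.07 and −0.20 in the controls and −1.65 and −2.14 after sevoflurane. PSMD5, which attaches to the PSMC2 and PSMC1 pair, was not called (−0.22 ± 0.30). PAAF1, a chaperone of PSMC5, was not called either (−0.57 ± 0.28). The conditions did not overlap for PSMD9, and among the 3 PSMD chaperones 1 thus rose, 1 fell and 1 was not called. That is 66.7% called, beside 40.7% of all tested genes.

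Genes of the ubiquitin-proteasome pathway that carry no PSM symbol were called about as often as the average gene. Across 5 lists, 17 of 45 tested gene IDs were called (37.8%), 12 lower and 5 higher, beside 40.7% of all tested genes, with a median of −0.02. The count was 9 without the sevoflurane male library and 10 without the control male. Among 12 further subunits, chaperones and bound enzymes, 1 fell and 1 rose, and the median was 0.04. SEM1, a small lid subunit, was at 120.4 and 187.3 CPM in the control female and male and 38.0 and 37.2 CPM after sevoflurane (−2.03 ± 0.31, edgeR adjusted p = 0.00463). USP14, the deubiquitinase that docks on the base, was at 83.8 and 72.8 CPM in controls and 187.3 and 304.5 CPM after sevoflurane (1.65 ± 0.32, adjusted p = 0.00944). The conditions were apart for both.

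Most genes of ubiquitin and its activation were lower. Of 7 gene IDs for ubiquitin and its activating enzymes, 5 fell (71.4%) and 1 rose (14.3%), beside 19.4% and 21.3% of all tested genes. Their median was −1.22. UBB, a polyubiquitin gene, was at 1506 and 1857 CPM in the control female and male and 662.7 and 491.6 CPM after sevoflurane (−1.54 ± 0.30, edgeR adjusted p = 0.00978). Both sevoflurane libraries were well below both controls. RPS27A was listed under 2 gene IDs, which may share reads and are therefore uncertain. UBA6, the alternative activating enzyme, was at 13.6 and 7.91 CPM in controls and 48.2 and 60.0 CPM after sevoflurane (2.33 ± 0.38, adjusted p = 0.00559).

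Of 12 shuttle factors and genes of the unfoldase p97, 4 fell and 0 rose, with a median of −0.49. That is 33.3% called, beside 40.7% of all tested genes. UBXN1, a p97 cofactor, was at 183.0 and 218.5 CPM in the control female and male and 45.9 and 38.8 CPM after sevoflurane (−2.24 ± 0.27, edgeR adjusted p = 0.00263). FAF2, another p97 cofactor, had the highest value of the list and was not called (0.82 ± 0.32). VCP, the p97 gene itself, fell (log2 −0.76 ± 0.24), a call lost with library totals (log2 −0.53, edgeR adjusted p = 0.126) and without any 1 of the 4 libraries (adjusted p = 0.0922 to 0.182, log2 −0.68 to −0.84). The cofactor NSFL1C fell too (log2 −1.05 ± 0.24), a call lost without the control female, the control male or the sevoflurane male library (adjusted p = 0.0567, 0.0743 and 0.0579, log2 −1.07, −1.03 and −1.05). VCP and NSFL1C were chosen after their values were seen, as was UBB.

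Of the tested regulators of proteasome transcription 28.6% were called, beside 40.7% of all tested genes. Of 7 tested, MAFG rose and MAFK fell, both partners of the cap'n'collar factors, and the median was 0.25. MAFG was at 6.002 and 3.46 CPM in the control female and male and 19.7 and 23.4 CPM after sevoflurane (2.18 ± 0.43, edgeR adjusted p = 0.0104), a call lost without the sevoflurane male library (adjusted p = 0.0573, log2 2.05). MAFK was at 41.2 and 28.3 CPM in controls and 18.4 and 11.5 CPM after sevoflurane (−1.22 ± 0.38, adjusted p = 0.0446), and was not called without the control female or the sevoflurane male library (adjusted p = 0.173 and 0.172, log2 −0.90 and −0.91) or with library totals. NFE2L1, the factor that raises proteasome genes when the protease is inhibited, was at 403.3 and 399.2 CPM in controls and 388.8 and 401.0 CPM after sevoflurane (−0.02 ± 0.24, or 0.21 with library totals). It was chosen after its values were seen, and its conditions overlapped.

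Of 7 tested genes of interferon signalling and antigen processing, 1 fell and 2 rose, with a median of 0.61. That is 42.9% called, near the 40.7% of all tested genes. TAPBP, a loading factor of MHC class I, was at 84.9 and 103.1 CPM in the control female and male and 40.7 and 32.0 CPM after sevoflurane (−1.37 ± 0.28, edgeR adjusted p = 0.0108). ERAP1, a peptidase that trims the peptides proteasomes release, was at 4.31 and 5.51 CPM in controls and 12.9 and 13.5 CPM after sevoflurane (1.43 ± 0.42, adjusted p = 0.0358). The call of TAPBP was lost without the sevoflurane male library (adjusted p = 0.0517, log2 −1.203), and that of ERAP1 without any 1 of the 4 libraries (adjusted p = 0.0618 to 0.132, log2 1.28 to 1.58). The other gene that rose was STAT2 (0.95 ± 0.29), a call likewise lost without any 1 library (adjusted p = 0.0650 to 0.154, log2 0.86 to 1.06). In the RefSeq gene order, the peptide transporter gene TAP1 lies directly between PSMB9 and PSMB8, and TAP2 on the other side of PSMB8. No gene ID was matched to TAP1, TAP2, ADRM1 or DDI2, which were not analysed here.

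The 2 sexes, which share no library, gave like values for most members. Of the 48 genes, 37 were lower after sevoflurane in both sexes, 5 were higher in both and 6 went opposite ways (12.5%). Of all tested genes, 42.4% were lower in both, 42.9% higher in both and 14.6% opposite, so the share of opposite genes was near the background. The median change in log2 CPM was −0.96 in females and −0.94 in males, beside 0.0022 and 0.01 over all tested genes. Group medians in females and males were −1.72 and −1.85 for the beta ring, −1.02 and −0.79 for the alpha ring, −0.73 and −0.78 for the ATPases, and −0.60 and −0.12 for the lid. PSME4 was at 2.12 in females and 2.91 in males, and PSMG4 at −2.23 and −3.11. PSMD10 was at 0.82 in females and 2.06 in males, and PSME2 at −0.94 and −2.14. With 1 library per sex and condition these differences could not be tested.

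**Figure D5:**
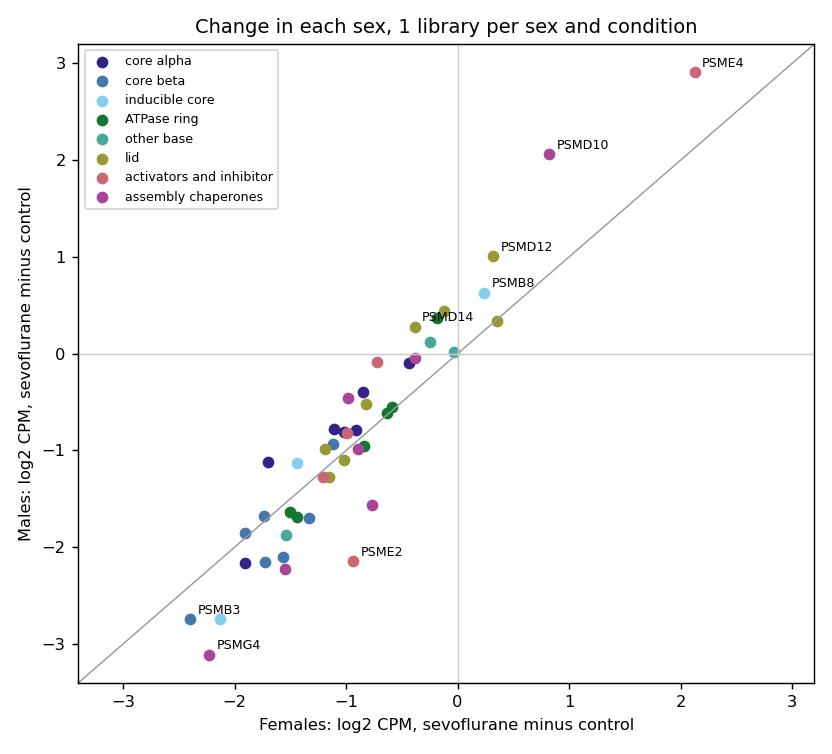
Change in log2 CPM, sevoflurane minus control, of the 46 subunits and chaperones in females (x axis) and males (y axis), 1 library per sex and condition; the diagonal marks equal change. Most points lie near the diagonal in the lower left, with PSME4 (2.12 and 2.91) and PSMD10 (0.82 and 2.06) at the upper right.

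Proteasome genes were not called between males and females. With condition as a term, edgeR called 0 of the 48 genes, and 0 had an unadjusted p under 0.05, beside 1.84% and 10.9% of all tested genes. The male minus female difference ranged from −0.71 (log2) for PSMB8 to 0.61 for PSMG1. PSMB8 was lower in the male than in the female of each condition, at 9.95 against 18.7 CPM in controls and 15.5 against 22.2 CPM after sevoflurane. PSMG1 was higher in each male, at 90.0 against 70.5 CPM and 65.5 against 35.7 CPM.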

How the data were processed

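RNA from 4 amygdala libraries was aligned with HISAT2, per the submitters' processing notes. Aligner version, counting program, genome build, annotation and strand setting: not given in the sources used here. Deposited values were raw read counts per Ensembl gene ID, which the authors had not normalized. Symbols came from a table that named 24173 of 35395 IDs. Every sample column was used. The members and gene lists were chosen with earlier results of these data known. The filterByExpr function of edgeR kept 15417 genes (count minimum 10, libraries grouped by condition), which were scaled by TMM (factors 0.904 to 1.10). Condition was tested with edgeR 4.0.16's quasi-likelihood F-test (2 residual degrees of freedom), and sex with condition and sex as terms (1 residual degree of freedom). Standard errors were derived from the F statistic. Log2 CPM used a prior count of 2. DESeq2 1.42.0 was an alternative. The labels do not state that libraries are separate animals beyond sex, so p-values measure the spread between these libraries, which includes sex. The script was tested on simulated data. The naming rule took, in each group, the lowest and highest log2 fold change and any member called against its group, plus PSMB5 to PSMB10, PSMD14, PSMG1 to PSMG4 and POMP. How reads on overlapping genes were counted is unknown, so such genes are uncertain. Some results of the pathway lists are not reported here.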

Additional observations from a re-analysis of the deposited data

Results flagged for a closer look

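In 6 of the 48 genes the change from control to sevoflurane pointed one way in the female libraries and the other way in the male libraries. That is 12.5%, beside 14.6% of all tested genes. The difference between the sexes was not tested, since each sex has 1 library per condition. The largest contrast was in PSMC3IP, a gene that only shares the prefix, at 0.76 (log2 CPM) in females and −1.18 in males. Among lid subunits, PSMD14 was at −0.38 in females and 0.28 in males, and PSMD6 at −0.12 and 0.44. PSMC6, of the ATPase ring, was at −0.19 and 0.37. The scaffold PSMD2 was at −0.24 and 0.12, and PSMD1 at −0.036 and 0.022. None of the 6 was called between the conditions by edgeR.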

How the results depend on the processing

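The labels give no replicate numbers, and a fit with sex as replicate block called 29 proteasome genes, all 29 called without it, and 7825 genes in all against 6278. Same-sex libraries deviated together across all tested genes at r = 0.33, which is no pairing by design. The same 29 genes were called by DESeq2, without a low-count filter and with at least 10 reads in 2 libraries, and 28 with DESeq2 size factors, where PSMA3 was lost. With library totals 23 were called. In that setting the group medians were −0.68 (alpha ring), −1.62 (beta ring), −1.16 (inducible subunits), −0.53 (ATPases), −0.67 (activators and inhibitor) and −0.71 (assembly chaperones), and that of the other base subunits turned from −0.07 to 0.16. Leaving out 1 library gave 18 to 20 proteasome genes called (17 to 18 lower, 1 to 2 higher), 9 to 15 pathway genes without a PSM symbol, and 3469 to 5800 genes in all. Medians then ranged from −1.61 to −2.003 (beta ring), −1.01 to −1.70 (inducible subunits), −0.75 to −1.05 (activators and inhibitor) and −0.88 to −1.12 (assembly chaperones). The core minus ATPase difference was −0.38 with summed CPM. The inducible share differed by 8.75 percentage points for PSMB8 with PSMB5, 0.61 for PSMB9 with PSMB6 and −7.71 for PSMB10 with PSMB7, against −1.06 for all 3 pairs, which ranged from −2.78 to 0.65 with 1 library left out. Among single genes, directions turned in these, none of which was called. With library totals these were PSMD1 (0.23), PSMD2 (0.16), PSMD14 (0.20), PSMD5 (0.0083), PSMC3IP (0.059) and NFE2L1 (0.21). PSMD1 was also at 0.0063 with DESeq2 size factors and 0.0063 with DESeq2, and at 0.019 without a filter. With 1 library left out, values ranged from −0.64 to 0.087 for PSMA1, −0.027 to 0.94 for PSMB8, −0.072 to 0.26 for PSMC6, −0.17 to 0.16 for PSMD1, −0.25 to 0.12 for PSMD2, −0.32 to 0.22 for PSMD14, −0.037 to 0.36 for PSMD6, −0.80 to 0.31 for PSMC3IP and −0.061 to 0.0086 for NFE2L1. A fit without 1 library has 1 residual degree of freedom, and its lone sample is assumed to vary like the other condition. The cause of these changes was otherwise not tested. Depth limits PSMB9, PSMG4 and PSMC3IP most among kept genes.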
